A study of Mus musculus with 2 samples.

Results

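The genes of the MAP kinase cascade and the dual-specificity phosphatases were taken by symbol: the mitogen-activated protein kinases (Mapk), the kinases of the 3 tiers above them (Map2k, Map3k and Map4k), the kinases they activate (Mapkapk) and the phosphatases named Dusp, each with at least 1 protein-coding transcript. The rule found 70 of the 55536 mouse genes in the tables. These were 13 Mapk, 7 Map2k, 18 Map3k, 5 Map4k, 3 Mapkapk and 24 Dusp genes. Kinases of the same pathway with other names, such as the Raf kinases, are given at the end as partners.

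Total RNA was sequenced from hippocampus of female 5xFAD/CAST mice aged 8 to 10 months, as 2 libraries of 300 ng RNA that form 1 group. 5xFAD mice carry human transgenes with familial Alzheimer mutations under the Thy1 promoter, which is active in neurons, and CAST is a wild-derived inbred strain. No control group was analysed here, so no value below is an effect of the transgenes, the strain or age. Both libraries carry the same donor record and separate biosample records, so the number of animals is not known, and every SD (n = 2) is the spread between these samples. The libraries held about 27683000 and 32169900 expected counts on mouse genes, of which the 70 genes took 0.342% and 0.353%. All 6 markers of hippocampal subfields were detected, with mean levels of 26.7 to 70.8 TPM, and so were all 7 neuronal markers. TPM is a transcript abundance corrected for length and scaled to the same total in each library, so that genes can be compared.

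In this cascade a MAP3K phosphorylates a MAP2K, and the MAP2K phosphorylates a MAP kinase on a threonine and a tyrosine of its activation loop. The ERK branch is known in hippocampal neurons for its part in synaptic plasticity and memory, and the JNK and p38 branches respond to stress and inflammatory signals. Dual-specificity phosphatases remove both phosphates, and several are themselves induced by the kinases they switch off. The assay measured RNA, so phosphorylation and activity were not measured.

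The activation loops are shown because the 3 codons in capitals differ between the ERK, JNK, p38 and atypical kinases printed here. Each line gives 33 bases of the coding strand, 5′ to 3′, of 1 such kinase. The capitals mark the Thr-Glu-Tyr motif in the ERK gene Mapk3, Thr-Pro-Tyr in the JNK gene Mapk10, Thr-Gly-Tyr in the p38 gene Mapk14 and Ser-Glu-Gly in the atypical gene Mapk6. Mapk7 and Mapk15 also encode Thr-Glu-Tyr and Mapk4 also Ser-Glu-Gly, so the motif does not separate Mapk7 or Mapk15 from the ERK branch. The sequences come from GENCODE M21 transcripts (mm10 reference) and not from the reads of these mice. Positions are chr7:126763446-126763478 on the plus strand for Mapk3, chr5:102989669-102989701 on the minus strand for Mapk10 and chr17:28728387-28728419 on the plus strand for Mapk14. The bases of Mapk6 lie across an exon junction on the minus strand of chromosome 9.
Mapk3: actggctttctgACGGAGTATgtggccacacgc
Mapk10: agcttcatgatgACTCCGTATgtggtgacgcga
Mapk14: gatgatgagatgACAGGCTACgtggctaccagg
Mapk6: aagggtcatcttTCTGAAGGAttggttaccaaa

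Detection required that both libraries reach a TPM of 1, and 62 of the 70 genes met it. The same rule held for 60.2% of the nuclear protein-coding genes. All 7 Map2k, all 5 Map4k and all 3 Mapkapk genes were detected, with 12 of 13 Mapk, 16 of 18 Map3k and 19 of 24 Dusp genes. The 8 genes below the limit were Mapk15, Map3k15, Map3k21, Dusp2, Dusp9, Dusp13, Dusp21 and Dusp27. Dusp21 had 0 counts in both libraries. By counting error alone, 0 allows as many as 3 counts, that is 0.108 CPM (counts relative to library size) in replicate 1 and 0.0933 in replicate 2.

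The median level per length was highest in the tier that phosphorylates the MAP kinases. The median TPM was 46.95 ± 4.68 over the Map2k genes, 33.7 ± 0.764 over Map4k, 31.0 ± 0.573 over Mapk, 18.4 ± 0.502 over Mapkapk, 8.61 ± 0.548 over Dusp and 7.91 ± 0.463 over Map3k (SD, n = 2 libraries each). The nuclear protein-coding genes had a median of 4.22 ± 0.0849. The Map4k and Mapk medians, and the Dusp and Map3k medians, lay close together. On coding transcripts alone the median TPM was 34.6 for Map2k, 20.03 for Mapk, 12.2 for Map4k, 11.98 for Mapkapk, 7.02 for Dusp and 6.16 for Map3k, so Map4k fell from near Mapk to near Mapkapk. Within the Map3k and Dusp groups a few genes were far above the rest.

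**Figure D1:**
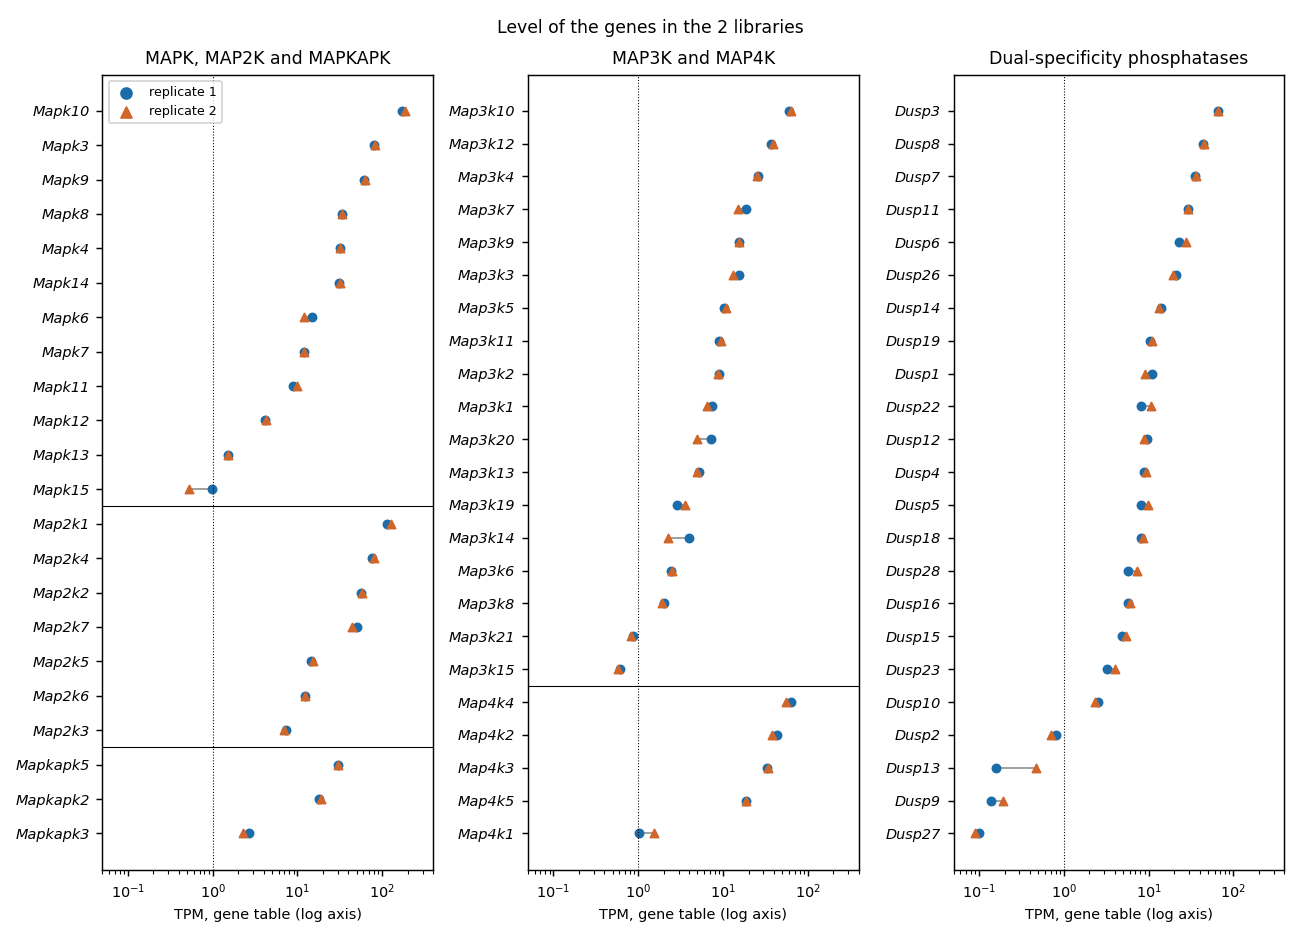
TPM of each reported gene in replicate 1 (circles) and replicate 2 (triangles), from the deposited gene table, on a log axis, ordered by mean level within each group. The dotted line marks a TPM of 1, and Dusp21, at 0 in both libraries, is not drawn. Most pairs of points overlap, and Mapk10 and Map2k1 lie above a TPM of 100.

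Mapk3, which encodes ERK1, lies on the plus strand of chromosome 7 (chr7:126759601-126765819) and had a TPM of 79.0 in replicate 1 and 81.5 in replicate 2.

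Mapk10 encodes JNK3, the JNK isoform that is enriched in neurons. Its TPM came to 169.9 and 188, with a mean of 179 ± 13.0. It was above Mapk3 in both libraries. The other JNK genes were lower, Mapk9 (JNK2) at 61.1 and 63.1 and Mapk8 (JNK1) at 33.3 and 33.2. On coding transcripts alone Mapk10 and Mapk9 lay much closer, at 61.3 and 62.1 for Mapk10 and 52.5 and 56.0 for Mapk9.

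Among the p38 genes Mapk14, which encodes p38 alpha, stood highest at 30.6 and 31.4. Mapk11 (p38 beta) had 8.96 and 10.0, Mapk12 (p38 gamma) 4.14 and 4.27, and Mapk13 (p38 delta) 1.53 and 1.52. The order of the 4 genes was the same in both libraries with no overlap between neighbours. Mapk13 rested on only 39 and 43 counts.

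Of the remaining MAP kinases, Mapk4 (ERK4) had 31.4 and 31.5 and Mapk6 (ERK3) 14.8 and 11.8. Both are atypical kinases whose loop lacks the tyrosine. Mapk7, which encodes the large kinase ERK5, had 12 and 11.9. Over all transcripts Mapk6 and Mapk7 changed order between the libraries. On coding transcripts alone Mapk6 (11.7 and 10.6) was above Mapk7 (5.55 and 6.57) in both. Mapk15 (ERK7 or ERK8), which is associated with cilia, had 0.97 and 0.52.

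Map2k1 encodes MEK1, which activates the ERKs, and had a TPM of 114 in replicate 1 and 128 in replicate 2. Map2k2 (MEK2), which has the same targets, had 56.6 and 57.8. Map2k4 (MKK4), which acts on JNK but not on JNK alone, had 76.0 and 80.6, and the JNK-directed Map2k7 (MKK7) had 50.3 and 43.6. Map2k1 and Map2k4 ranked first and second of the tier in both libraries, and Map2k2 was above Map2k7 in both. Lower were Map2k6 (MKK6), at 12.4 and 12.3, and Map2k3 (MKK3), at 7.26 and 7.03, both directed at p38. Map2k5 (MEK5), which activates ERK5, had 14.3 and 15.2. Map2k1, Map2k2, Map2k4 and Map2k7 thus had a TPM of at least 43.6 in each library, and the other 3 genes at most 15.2.

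Map3k10 and Map3k12 were the highest of the Map3k tier. Map3k10 (MLK2) had a TPM of 60.2 in replicate 1 and 64.2 in replicate 2, and Map3k12, the dual leucine zipper kinase known from axon injury responses, had 37.1 and 38.5. Map3k4 (MEKK4) followed at 26.0 and 25.5. All 3 act towards JNK or p38, and their order did not change between libraries. Map3k7 (TAK1), which relays cytokine signals, had 18.8 and 15.2. Map3k9 (MLK1) had 15.6 and 15.5. Map3k3 (MEKK3), which acts on MEK5, had 15.5 and 13.3. Map3k7 was above Map3k9 in replicate 1 and below it in replicate 2, and Map3k3 was below both in each library. The other 12 Map3k genes had mean TPM between 0.595 (Map3k15) and 10.6 (Map3k5).

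Map4k4 was the highest of the Map4k tier, whose kinases link small GTPases and receptors to JNK, at 62.6 and 55.8. Map4k2 had 43.1 and 37.4, Map4k3 33.2 and 34.3, and Map4k5 18.5 and 18.7. Map4k1 (HPK1), a kinase of blood cells, had 1.02 and 1.53. Over all transcripts the order of the 5 genes was the same in both libraries. On coding transcripts alone Map4k2 (4.95 and 4.79) was below Map4k3 (27.85 and 29.06) and Map4k5 (12.03 and 12.28) in both. Of 4 matched lymphocyte and neutrophil markers none was detected.

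Among the kinases activated by MAP kinases, Mapkapk5 (PRAK or MK5), a partner of the atypical kinases ERK3 and ERK4, had 30.5 and 30.2. Mapkapk2 (MK2), the p38 target that controls stability of cytokine messenger RNAs, had 18.1 and 18.8. Mapkapk3 (MK3) had 2.69 and 2.26. Over all transcripts the 3 genes kept this order in both libraries. On coding transcripts alone Mapkapk5 (12.4 and 11.5) was below Mapkapk2 (18.1 and 18.8) in both, but a second quantification, given below, had the opposite order.

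Of the phosphatases of the nucleus that are induced by the kinases, Dusp1 had a TPM of 10.9 in replicate 1 and 9.07 in replicate 2, Dusp4 8.83 and 9.24, and Dusp5 8.22 and 9.85. Their ranges overlapped and the 3 genes were not separated. Dusp2, known from lymphocytes, had 0.80 and 0.71. Of the ERK-directed phosphatases of the cytoplasm Dusp7 had 35.2 and 35.8 and Dusp6 23.1 and 27.6, while Dusp9 stayed at 0.14 and 0.19. Dusp7 and Dusp6 were each above all 4 inducible nuclear genes in both libraries. Of the phosphatases directed at JNK and p38, Dusp8 led with 44.4 and 45.4, and Dusp16 and Dusp10 had 5.79 and 6.05, and 2.53 and 2.35.

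The 14 atypical phosphatases lack the kinase-interacting domain of the other classes, and some act on other substrates. Dusp3 (VHR) had the highest level of all 24 Dusp genes, at 65.5 and 66.4. Dusp11, which acts on the 5′ triphosphate of RNA, had 28.8 and 29.5, and Dusp26, known in neural tissue, had 21.2 and 19.7. Dusp14 had 13.9 and 13.2, Dusp19 10.5 and 11.0, and Dusp22 8.05 and 10.8. Over all transcripts Dusp3, Dusp11, Dusp26 and Dusp14 kept their order in both libraries, and Dusp19 was above Dusp22 in both. On coding transcripts alone Dusp11 (10.3 and 10.7) was below Dusp26 (19.2 and 16.8) and Dusp14 (13.9 and 13.2). Dusp19 (4.38 and 5.53) was likewise below Dusp22 (8.05 and 10.8) on coding transcripts. The other 8 atypical genes had mean TPM between 0 and 9.23 (Dusp12).

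These levels sum all transcripts of a gene, and not all of them are coding. Over the 62 genes whose mean TPM reached 1, the median share of TPM on protein-coding transcripts was 84.0% in the expected-count transcript table and 78.2% in the second transcript table, which holds estimated counts. Over nuclear protein-coding genes at that level it was 88.1% and 84.8%. Coding transcripts held under 50% of the TPM in both tables in 8 of the 62 genes, beside 9.01% of the nuclear protein-coding genes. These were Mapk10, Mapk12, Mapk13, Map3k6, Map4k1, Map4k2, Dusp11 and Dusp19. In Mapkapk5 the tables differed, with a coding share of 39.5% in the expected-count table and 76.2% in the second.

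Mapk10 had the largest gap in TPM between all and coding transcripts. Its coding transcripts held a TPM of 61.3 in replicate 1 and 62.1 in replicate 2 of the expected-count table, or 34.4% of the gene. On coding transcripts of that table Mapk10 was below Map2k1, Mapk3, Map2k4 and Dusp3 in mean TPM, all of which it exceeded over all transcripts. By the second table Mapk10 was also below Map2k1, Mapk3 and Map2k4 on coding transcripts, but close to Dusp3 (mean TPM 54.8 and 54.0). In the second table the coding share of Mapk10 was 29.2%, and its main transcript, the one with the highest mean TPM, was Mapk10-207, a noncoding processed transcript of 342 bases with 83.9 and 78.1. Next came Mapk10-209, annotated as subject to nonsense-mediated decay, with 43.9 and 52.6, and the coding Mapk10-212 with 29.7 and 37.6. Both of these transcripts that are not annotated as coding lie wholly within exons of coding Mapk10 transcripts (100% of their bases), so their reads cannot be told from coding transcripts by position alone, and the assignment is an estimate. Mapk10-207 spans chr5:103205827-103211334 and Mapk10-209 spans chr5:102913129-103205929 on the minus strand.

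**Figure D2:**
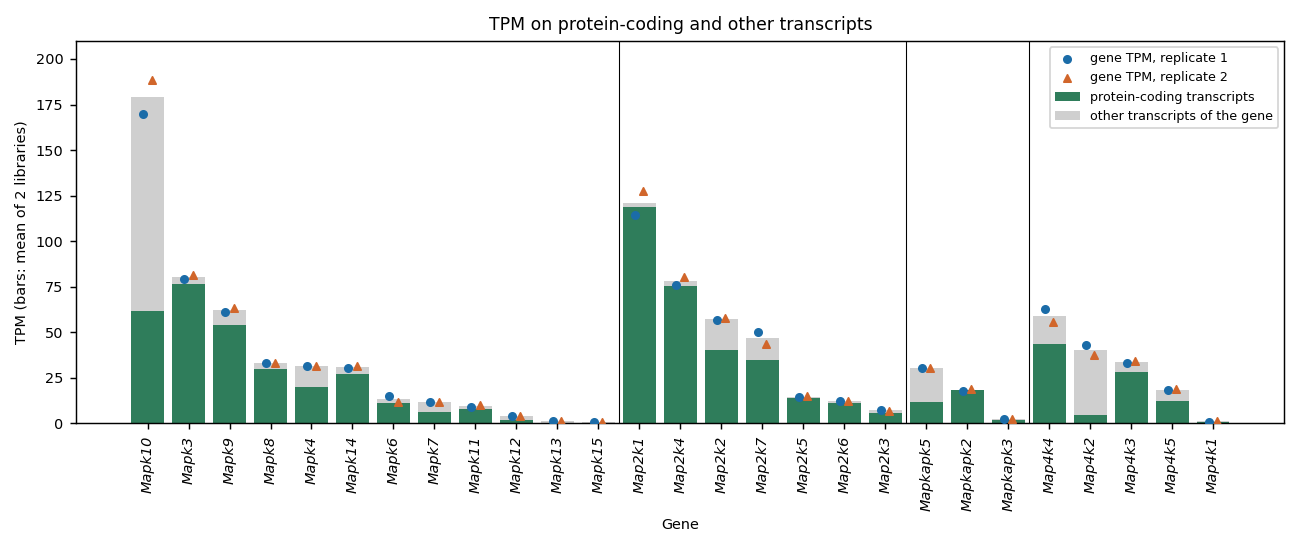
Bars give the mean TPM over 2 libraries on protein-coding transcripts (green) and on other transcripts (grey) of the Mapk, Map2k, Mapkapk and Map4k genes reported, from the expected-count transcript table. Points give the gene-level TPM of each library. Mapk10, Map4k2 and Mapkapk5 are mostly grey, and Mapk3 and Map2k1 are mostly green.

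The main transcript was noncoding in 3 of the 62 genes, beside 9.84% of the nuclear protein-coding genes. Besides Mapk10 these were Map4k2 and Mapk13. In Map4k2 the TPM was spread over many retained-intron transcripts, the highest of which, Map4k2-215, had 5.52 and 5.50, and the coding Map4k2-201 had 4.02 and 3.47. Map4k2 therefore stood thirteenth of the 70 genes by gene-level TPM and 49th by coding TPM. In Mapk13 the highest transcript, Mapk13-208 (nonsense-mediated decay), had 0.817 and 0.186.

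Of the 62 genes, 10 had at least 2 coding transcripts with 25% or more of the TPM each in the estimated-count table, beside 18.1% of the nuclear protein-coding genes. In Mapk8 the transcripts were Mapk8-205 at 13.2 and 14.5 and Mapk8-204 at 9.89 and 7.93. In Mapk6 they were Mapk6-202 at 5.01 and 6.26 and Mapk6-201 at 5.72 and 3.25, which changed order between libraries. In Mapkapk5 the pair was Mapkapk5-210, of 436 bases, at 8.39 and 8.24, and Mapkapk5-201, of 2234 bases, at 8.19 and 7.79. Dusp26 carried 12.4 and 8.01 on Dusp26-203 and 6.64 and 8.80 on Dusp26-201. Dusp14 had 10.5 and 2.85 on Dusp14-202, while Dusp14-201 was near 0 in replicate 1 and at 6.96 in replicate 2. In the expected-count table Dusp14-202 also differed between the libraries, at 11.8 and 5.71, whereas Mapk6-201 (11.0 and 9.52) stayed above Mapk6-202 (0.62 and 1.07) and Dusp26-203 (12.9 and 11.2) above Dusp26-201 (6.39 and 5.55) in both. The other 5 genes were Map3k5, Map3k9, Map4k3, Dusp15 and Dusp22.

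The JNK genes and Mapk14 each have a pair of mutually exclusive coding exons of equal length, of which a transcript holds one or the other. This comparison was chosen after the data were seen. In the annotation no other of the 70 genes had such a pair of equal length. The exons are shown because the levels that follow are summed over the transcripts that hold each exon. In each line the bases in capitals are those that differ between the upstream and the downstream exon of the same gene, on the coding strand, 5′ to 3′, from the mm10 reference.
Mapk10 upstream: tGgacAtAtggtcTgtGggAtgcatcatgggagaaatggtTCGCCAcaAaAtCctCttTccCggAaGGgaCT
Mapk10 downstream: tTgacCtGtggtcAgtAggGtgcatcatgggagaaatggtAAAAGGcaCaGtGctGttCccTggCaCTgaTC
Mapk8 upstream: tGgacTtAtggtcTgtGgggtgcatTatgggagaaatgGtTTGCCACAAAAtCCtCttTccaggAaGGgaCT
Mapk8 downstream: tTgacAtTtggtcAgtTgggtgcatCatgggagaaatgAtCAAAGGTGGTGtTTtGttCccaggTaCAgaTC
Mapk9 upstream: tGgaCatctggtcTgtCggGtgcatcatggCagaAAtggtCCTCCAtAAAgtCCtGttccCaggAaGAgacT
Mapk9 downstream: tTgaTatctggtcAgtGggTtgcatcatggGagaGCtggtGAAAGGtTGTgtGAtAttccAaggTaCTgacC
Mapk14 upstream: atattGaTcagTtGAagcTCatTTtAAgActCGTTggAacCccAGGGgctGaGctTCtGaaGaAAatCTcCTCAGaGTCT
Mapk14 downstream: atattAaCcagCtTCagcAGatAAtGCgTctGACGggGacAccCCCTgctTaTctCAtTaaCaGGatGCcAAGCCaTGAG

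The upstream and downstream exons lie at chr5:102987203-102987274 and chr5:102976355-102976426 in Mapk10 (minus strand), at chr14:33390673-33390744 and chr14:33390242-33390313 in Mapk8 (minus strand), at chr11:49873836-49873907 and chr11:49874264-49874335 in Mapk9 (plus strand), and at chr17:28737011-28737090 and chr17:28740680-28740759 in Mapk14 (plus strand). The exons of the JNK genes are 72 bases long and those of Mapk14 are 80 bases. Within a gene the exons differ at 23 positions in Mapk10, 27 in Mapk8, 25 in Mapk9 and 41 in Mapk14. The same exon is closer between genes: the upstream exons of Mapk10 and Mapk8 differ at 5 of 72 positions and are 93.1% identical, and those of Mapk10 and Mapk9 are 83.3% identical.

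Mapk8 transcripts mostly held the upstream exon. Summed TPM in the estimated-count table was 23.1 and 22.4 with the upstream exon and 3.70 and 4.54 with the downstream exon, an upstream share of 84.7 ± 2.16% (SD, n = 2). Mapk9 held both about equally, with 21.2 and 26.9 upstream and 28.3 and 27.8 downstream, a share of 46.0 ± 4.40%. The share of Mapk8 was above that of Mapk9 in both libraries.

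Mapk10 had 47.0 and 48.3 on transcripts with the upstream exon and 43.9 and 52.6 with the downstream exon, a share of 49.8 ± 2.72%. All of the downstream TPM lay on the decay transcript Mapk10-209, and the coding Mapk10-201 with that exon was at 0 in both libraries. Among coding transcripts alone the upstream share of Mapk10 was therefore 100% in both, while those of Mapk8 and Mapk9 were unaltered. Mapk14 had 14.7 and 12.3 upstream and 9.19 and 11.0 downstream, a share of 57.2 ± 6.16%. In the expected-count table the upstream shares were 88.8% in Mapk8, 43.6% in Mapk9, 53.3% in Mapk10 and 61.2% in Mapk14, the same order. The files give no reads per exon, so these shares rest on reads assigned to whole transcripts.

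**Figure D3:**
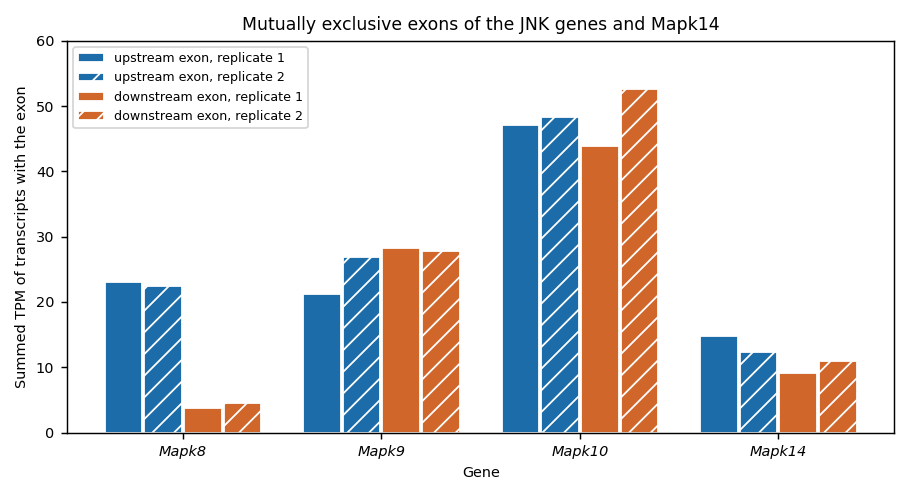
Summed TPM of transcripts that hold the upstream (blue) or the downstream (orange) exclusive exon of Mapk8, Mapk9, Mapk10 and Mapk14, in replicate 1 (plain) and replicate 2 (hatched), from the estimated-count table, all transcript types. In Mapk8 the blue bars, at 23.1 and 22.4, stand far above the orange ones, at 3.70 and 4.54, and in Mapk9 and Mapk10 the colours are near each other.

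The 2 libraries were close over the whole set. The log2 ratio of replicate 2 over replicate 1 (expected counts scaled with TMM) was computed for the 66 genes whose mean count reached 10. Its median was 0.03, with 37 genes higher and 29 lower in replicate 2 (48 and 18 with spike-in scaling), and the median without sign was 0.08. Of the nuclear protein-coding genes 56.5% were higher, or 69.5% with spike-in scaling. Over all mouse genes past the same limit these medians were 0.01 and 0.12. Among genes with at least 100 counts the medians without sign were 0.08 for 59 of the genes and 0.09 for all mouse genes.

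One of the 66 genes, Mapk15, passed a 2-fold difference, beside 2.64% of all mouse genes (1.85% lower in replicate 2) and 9.77% of those with mean counts of 10 to 50. It had 28 counts in replicate 1 and 13 in replicate 2, a log2 ratio of -1.17 with an exact 95% interval for counting error of -2.37 to -0.30. In the estimated-count table its TPM was level at 1.11 and 1.08, while the log2 ratio of its counts was -0.82, lower in replicate 2 and short of 2-fold. These values sum all transcripts of Mapk15, most of whose TPM was not on coding ones. Coding transcripts held 27.7% of its TPM in the expected-count table, at 0.18 and 0.23. In the estimated-count table they held 19.7%, at 0.262 and 0.170, so the direction on coding transcripts differed between the tables. Markers of ciliated ependymal cells (5 of 5 lower in replicate 2, median log2 ratio -1.10, summed TPM 21.9 and 13.0) and of the choroid plexus (6 of 6 lower, median -1.19, summed TPM 449.9 and 157) moved in the same direction as Mapk15. Their part in the Mapk15 difference was not tested, and in bulk tissue fewer cells and less RNA per cell cannot be told apart. Markers of red blood cells (3 of 3, median -0.52) and oligodendrocytes (5 of 5, median -0.29) were also lower in replicate 2, and neuronal markers higher in 6 of 7 (median 0.13). The median log2 ratio was -0.11 over 5 microglial and -0.06 over 5 astrocyte markers.

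Among genes with at least 100 counts the largest differences were those of Map3k14 (NIK, the kinase of the alternative NF-kappaB pathway), with 221 and 196 counts and a log2 ratio of -0.36, and Dusp28, with 135 and 197 counts and a ratio of 0.35.

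**Figure D4:**
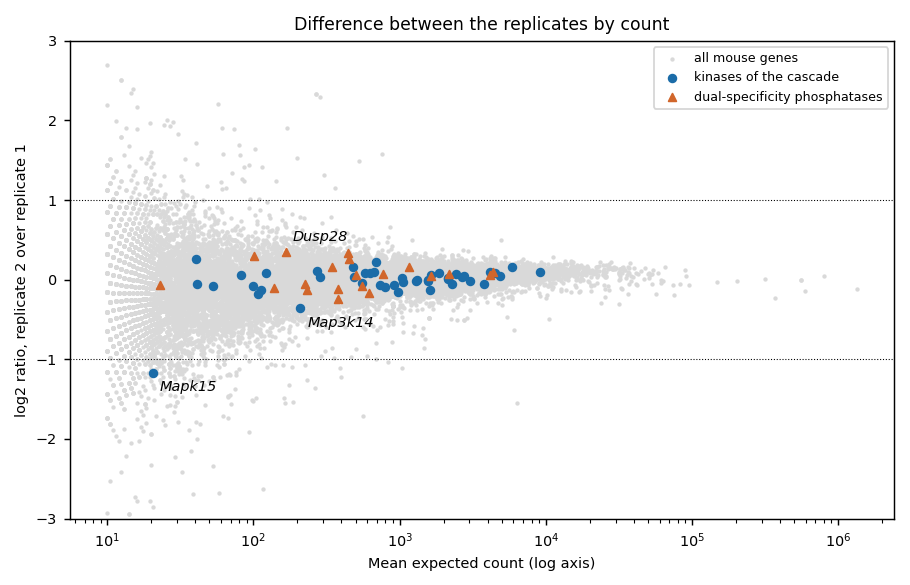
The log2 ratio of replicate 2 over replicate 1 against the mean expected count (log axis) for all mouse genes whose mean count reached 10 (grey), the kinases (circles) and the phosphatases (triangles), with genes beyond ±3 not shown. The dotted lines mark 2-fold, and Mapk15 is the one coloured point beyond them.

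TPM depends on the transcript lengths to which reads were assigned as well as on counts. In 4 of the 62 genes the log2 ratio between libraries in TPM and in counts differed by at least 0.3, beside 5.35% of the nuclear protein-coding genes. Counts were here scaled by library size alone. Map3k14 had a TPM of 3.95 and 2.24, a log2 ratio of -0.82 against -0.39 in counts. Map3k20 (ZAK), a sensor of stalled ribosomes, had 7.30 and 4.92 in TPM, a ratio of -0.57, while its counts of 527 and 585 gave -0.07. The others were Map3k19 (0.33 in TPM and 0.005 in counts) and Map4k1. For these 4 genes a difference in TPM between the libraries is partly one of assigned length, and for Map3k19 and Map3k20 mostly so.

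Both quantifications put the genes at similar levels. None of the 62 genes differed by 2-fold between the gene table and the estimated-count table, centred on all nuclear protein-coding genes, of which 1.05% did. Past 1.5-fold were Map3k5 (ASK1), at 10.6 ± 0.361 and 15.7 ± 0.974, and Dusp15, at 5.10 ± 0.382 and 7.49 ± 0.134, beside 3.77% of the nuclear protein-coding genes. In Map3k5 the second table put 5.49 and 4.61 on the 378-base Map3k5-205, and the expected-count table put 0 on it in both libraries. The main transcript differed between the tables in 10 of the 62 genes, beside 17.1%. Dusp3 was one of them: the second table put 38.7 and 44.9 on Dusp3-203 and the expected-count table put 0 there. The mean TPM of the Dusp3 gene was 65.95 ± 0.651 in the gene table and 54.0 ± 1.03 in the second, short of 1.5-fold.

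**Figure D5:**
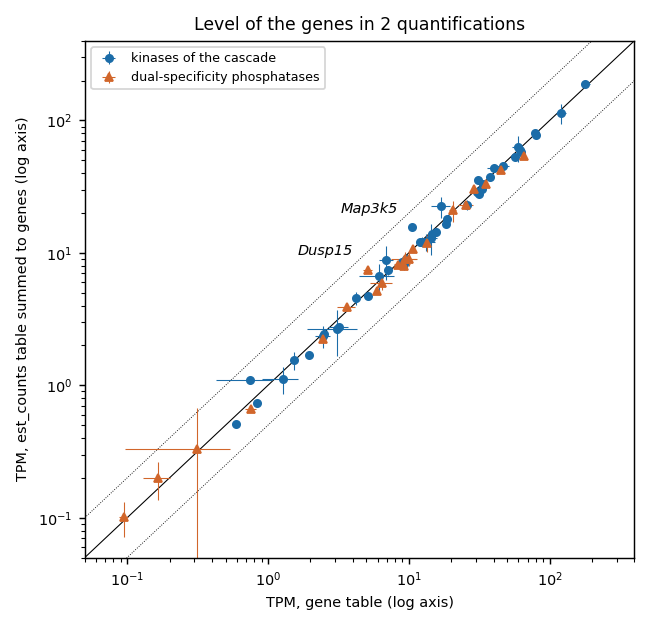
Mean TPM of each gene in the gene table (x) and in the estimated-count table summed to genes (y), both on log axes, with SD over 2 libraries as bars. Dusp21, at 0, is not drawn and the lower bar of Dusp13 runs past the axis. The solid line marks equality and the dotted lines 2-fold, and Map3k5 and Dusp15 are the named genes past 1.5-fold.

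The partners outside the name rule were read from a list of 66 genes: Ras proteins and their exchange factors, Ras brakes, Raf kinases, scaffolds, downstream kinases, transcription factors and tyrosine phosphatases. Of these 64 were detected, beside 60.2% of the nuclear protein-coding genes, and none passed 2-fold between the libraries. Their log2 ratio was above 0 in 44 (68.8%), beside 56.5% of the nuclear protein-coding genes, and in 82.8% beside 69.5% with spike-in scaling. Rasgrf1, a calcium-regulated Ras exchange factor of neurons, was the highest at a TPM of 183 and 198. Among the Raf kinases, which phosphorylate MEK1 and MEK2, Araf had 83.3 and 86.0, and Mos, the Raf-tier kinase of oocytes, was not detected at 0.08 and 0.10.

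The highest scaffold was Mapk8ip3 (JIP3), which binds JNK and its activators on axonal cargo, at 164 and 169. Of the downstream kinases Mknk1, which phosphorylates the cap-binding factor eIF4E, was highest at 26.1 and 31.0. Jund led the transcription factors at 83.8 and 83.6. Of the tyrosine phosphatases Ptpn5 (STEP), which dephosphorylates ERK in striatal and hippocampal neurons, had 40.2 and 44.9, and Ptpn7, known from lymphocytes, was not detected at 0.08 and 0.15. Ptpn5 and Dusp7 were both above every inducible nuclear Dusp gene in each library.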

How the data were processed

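Total RNA-seq of hippocampus from 2 libraries was read from the deposited tables. Per the file headers and readme, the authors made gene and transcript tables of expected counts and TPM (mm10, GENCODE M21) from aligned reads, with the posterior SD of each count as another column, and estimated counts with TPM per transcript from the reads and an index. For the quantification programs, their versions and the use of strand: not given in the sources used here. Per the labels the library kit was directional. Reads of CAST alleles were assigned on the mm10 reference, whose effect was not tested.

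Rows that name no mouse gene (spike-ins and numeric identifiers) took 0.481% and 0.454% of expected counts and stayed out. Expected counts were rounded and scaled with TMM (edgeR 4.0.16, R 4.3.3). Log2 ratios used CPM with a prior count of 2, a mean count of at least 10 and a 2-fold call. Intervals are exact binomial intervals at 95% and cover counting error only. The deposited posterior SD of the count was above 0 in 6 of the 70 genes (Map2k7, Map3k4, Map3k7, Map3k13, Mapk6 and Mapkapk5) and at most 11.4 reads. With 1 group no hypothesis test was run. The ratio script was tested on simulated data.

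Values in every library are given for all Mapk, Map2k and Mapkapk genes, the 6 highest of each other class, genes past 2-fold, and, of the first 3 groups, genes with a noncoding main transcript or several coding ones. Of the partners the highest of each list is named. Some genes that these rules name are not reported here, and counts and medians include them. Other named genes were chosen after their values were seen. The genes and lists were chosen with earlier results of these data known. 1 marker, Trbc2, was not matched. Alternatives were DESeq2 1.42.0 size factors, library size, spike-in scaling, other thresholds, the other table and leaving out a library. Tables used Python 3.11.15 and pandas 2.3.3, and figures matplotlib 3.10.9.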

Additional observations from a re-analysis of the deposited data

How the results depend on the processing

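The count of 62 detected genes came to 66 at a TPM limit of 0.5 and 59 at a limit of 2, and was 62 with either library alone and in the estimated-count table. The genes were not the same in the estimated-count table: Mapk15 (1.11 and 1.08) was detected there and Map4k1 (1.30 and 0.938) was not. The 1 gene past 2-fold between the libraries was also the count under DESeq2 size factors, library size alone, spike-in scaling, no count limit, a prior count of 0.5 and a 1.5-fold call. It fell to 0 at a mean count of at least 100 and to 0 in the estimated-count table, where Mapk15 had a log2 ratio of -0.82, in the same direction and under the 2-fold line. The median log2 ratio of 0.03 ranged from 0.00 (library size alone) to 0.09 (spike-in scaling). Spike-in scaling moved the ratios of 4 genes, Mapk9, Mapk10 and Map2k1 among them, outside their counting intervals, upwards. Mean TPM of 41 genes moved by more than 1 SD in the estimated-count table, where the Mapk median was 27.7 and the Mapkapk median 16.6. Rescaled to nuclear protein-coding genes alone, which leaves ratios between genes in a library as they are, the medians were 69.4 for Mapk, 105.1 for Map2k, 17.7 for Map3k, 75.4 for Map4k, 41.2 for Mapkapk and 19.2 for Dusp. Leaving out 1 library gave 30.6 to 31.4 for Mapk, 43.6 to 50.3 for Map2k, 7.58 to 8.24 for Map3k, 33.2 to 34.3 for Map4k, 18.1 to 18.8 for Mapkapk and 8.23 to 9 for Dusp. At 1.5-fold, 2 genes differed between the tables in place of 0. Genes with a noncoding main transcript came to 5 in the expected-count table (adding Map3k6 and Map4k1) and 4 to 5 with 1 library left out, in place of 3. The shares of the exclusive exons were tried in the expected-count table, on coding transcripts and with either library alone, all added after seeing the data. On coding transcripts the Mapk10 share rose from 49.8% to 100%, and in replicate 2 alone Mapk9 (49.1%) was above Mapk10 (47.9%). Mapk15 was lower in replicate 2 under every scaling tried, and small ratios such as that of Map2k7 (0.01, and -0.01 with library size alone) changed sign. No paired analysis was possible because the 2 libraries form a single group. Genes under 100 counts, Mapk15 among them, are limited by counting error, and the depth per transcript is not known apart from the estimated assignment.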
